A study of Mus musculus with 12 samples.

Results

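The 10 genes described here encode the MHC class I molecules of mouse cells and the proteins that load them with peptide: the heavy chain genes H2-K1, H2-D1, H2-Q6, H2-Q7 and H2-T23, the light chain gene B2m, the transporter genes Tap1 and Tap2, the tapasin gene Tapbp and the class I transactivator gene Nlrc5. They were chosen by name, and 10 of 10 were among the 13283 genes of the expression table. mRNA of mouse cytotoxic T lymphocytes (CTL) was measured in 12 libraries, 3 in each of 4 groups. Cell suspensions from lymph nodes or spleens of female mice were activated through the T cell receptor and CD28 for 48 h. The cells were expanded with the cytokines IL-2, at 20 ng/mL, and IL-12, at 2 ng/mL. CD8 cells were isolated only by the sort at the end. From day 6 the cells were cultured for 24 h with vehicle (DMSO) or with IC87114 (10 µM), an inhibitor of the p110δ catalytic subunit of PI3K, here PI3Kdi. WT and FOXO1-GFP KO CTL were each cultured both ways, so that the groups were WT CTL, WT CTL with PI3Kdi, FOXO1-GFP KO CTL and FOXO1-GFP KO CTL with PI3Kdi. All mice carried the GzmB cre transgene, in which the granzyme B promoter drives Cre, so deletion in the KO mice (FOXO1-GFP fl/fl) depended on that promoter having been active. The WT cells were sorted as live CD8+ cells and the KO cells as live CD8+ cells that had also lost GFP, so the sort differed between genotypes. The labels did not say how many mice the libraries came from, and p-values measure the spread between these libraries.

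An MHC class I molecule is a heavy chain paired with beta-2 microglobulin and a short peptide. Peptides cut by the proteasome, in lymphocytes often by its interferon-inducible form, are pumped into the endoplasmic reticulum by the TAP1-TAP2 transporter, and tapasin holds empty heavy chains beside that transporter until a peptide binds. H2-K1 and H2-D1 encode the classical molecules, which show peptides to CD8 T cells on nearly all nucleated cells. H2-Q6, H2-Q7 and H2-T23 encode nonclassical heavy chains with little polymorphism. The proteins of the H2-Q6 to H2-Q9 genes are known together as Qa-2, and the product of H2-T23 is Qa-1, a ligand of the NKG2A receptor. NLRC5 acts in the nucleus on class I promoters together with RFX and NF-Y factors. CTL carry class I molecules themselves while they read those of their targets. The transcription factor FOXO1 is kept out of the nucleus by PI3K signalling through AKT, and PI3Kdi lets it return, so the comparison of genotypes with and without the inhibitor asks which responses depend on FOXO1.

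Levels are given as FPKM, fragments per kilobase of transcript scaled to the size of the library, which allow genes to be compared per length. The estimated depth was between 12.9 and 48.0 M reads per library. Foxo1 itself was at 5.77 to 10.5 FPKM in the 6 WT libraries and at 0.58 to 1.75 FPKM in the 6 KO libraries, with no overlap. Markers of CD8 T cells and CTL were at high levels in every library (9 of 9 in the table, summing to 8816 to 12748 FPKM). Most of that sum was Gzmb (granzyme B), at 7317 to 10955 FPKM. Cd8a was at 139 to 253 FPKM and Cd3e at 69.95 to 96.65 FPKM. Of the markers of other cells, 4 of 12 myeloid genes, 3 of 4 CD4 T cell genes, 2 of 4 NK cell genes and 0 of 6 erythroid genes were in the table, and the ranges of each sum overlapped between WT and KO CTL without PI3Kdi for the myeloid and CD4 lists but not for the NK list (84.1 to 92.3 FPKM in WT CTL and 98.6 to 113.8 FPKM in KO CTL). Most of the NK sum was Eomes, which the paper counts among key CD8 T cell transcription factors. Eomes was at 82.5, 81.8 and 89.7 FPKM in WT CTL and at 95.7, 110 and 96.2 FPKM in KO CTL. Klrb1c, the other NK gene, was at 1.94 to 2.67 FPKM in WT CTL and at 2.47 to 3.72 FPKM in KO CTL. With PI3Kdi the NK sums overlapped, at 86.0 to 114.2 FPKM in WT CTL and 93.4 to 107.1 FPKM in KO CTL. The B cell list and Cd4 itself are described with the H2-Q genes.

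B2m was the most abundant of the 10 genes, with a mean of 3798 FPKM over the 12 libraries, and ranked 7 of all genes in the table. It alone took 1.09% of the summed FPKM. The classical heavy chains followed, with H2-D1 at 1053 FPKM (rank 34) and H2-K1 at 843 FPKM (rank 52). H2-Q6 was at 204 FPKM and H2-Q7 at 112 FPKM. The loading genes and H2-T23 lay close together, with Tapbp at 99.2, H2-T23 at 96.1, Tap2 at 86.6 and Tap1 at 83.2 FPKM. Nlrc5 was lowest at 54.6 FPKM, and still ranked 955. B2m, H2-D1, H2-K1, H2-Q6 and H2-Q7 stood in this order in 12 of 12 libraries, and Tap1 was above Nlrc5 in 12 of 12. The neighbours between them did not keep one order: H2-Q7 was above Tapbp in 6 of 12 libraries, Tapbp above H2-T23 in 7 of 12, H2-T23 above Tap2 in 8 of 12 and Tap2 above Tap1 in 10 of 12. Counting error was small at these levels, since the least covered of these values rested on an estimated 3904 reads (H2-T23), and the counting error of a single library was at most 1.60% of its value. The spread between the libraries of a group was from 0.678% of the mean (Tap2 in KO CTL) to 20.7% (H2-T23 in WT CTL with PI3Kdi).

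**Figure D1:**
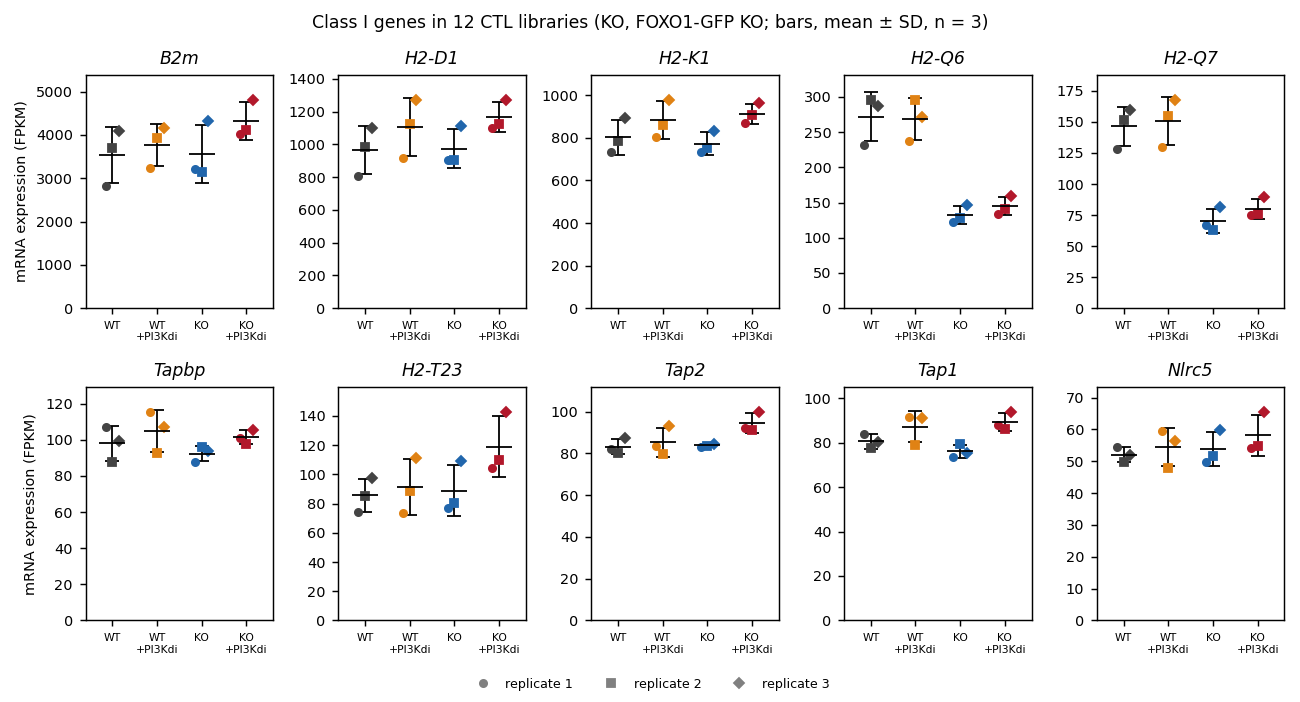
mRNA expression (FPKM, y axis from 0, a scale of its own for each gene) of the 10 genes in 12 CTL libraries, with points for single libraries, shapes for replicate numbers and bars for the mean ± SD of 3. In each culture condition H2-Q6 and H2-Q7 sit lower in the 3 KO libraries than in the 3 WT libraries, while the groups of the other 8 genes lie close together between genotypes. Same-numbered libraries of a genotype deviated together, so the culture conditions are not independent repeats.

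Of the 10 genes, the Qa-2 heavy chain genes H2-Q6 and H2-Q7 were lower in FOXO1-GFP KO CTL than in WT CTL, both without and with PI3Kdi, and the classical heavy chains, the light chain and the loading genes did not pass the test between genotypes. In WT CTL, H2-Q6 was at 232, 296 and 288 FPKM, and in KO CTL it was at 123, 128 and 147 FPKM. With PI3Kdi, H2-Q6 was at 237, 296 and 272 FPKM in WT CTL and at 134, 141 and 159 FPKM in KO CTL. The highest KO library was therefore below the lowest WT library in each culture condition. The means were 272 ± 34.8 and 133 ± 12.9 FPKM without PI3Kdi (SD, n = 3), and 269 ± 29.8 and 145 ± 12.9 FPKM with it. H2-Q7 followed the same course at a lower level. It was at 128, 151 and 159 FPKM in WT CTL and at 66.9, 63.0 and 81.2 FPKM in KO CTL. With PI3Kdi it was at 130, 155 and 168 FPKM in WT CTL and at 75.4, 75.5 and 89.2 FPKM in KO CTL. The groups of H2-Q7 did not overlap either.

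On the log2(FPKM + 0.1) scale H2-Q6 fell by 1.03 in KO CTL (SE 0.13, 95% interval -1.32 to -0.74), which is a level of 0.489 of that in WT CTL, with a limma adjusted p of 0.00773. H2-Q7 fell by 1.06 (SE 0.14, adjusted p = 0.00841). A gene was called where its adjusted p was below 0.05 and its change was above 1.5-fold. By that rule 2 of the 10 genes were called lower in KO CTL without PI3Kdi, where 0.263% of all genes tested were. With PI3Kdi, H2-Q6 fell by 0.89 (adjusted p = 0.00591) and H2-Q7 by 0.91 (adjusted p = 0.00677), again 2 of 10 genes, where 1.02% of all genes were called lower. In the same direction, the groups failed to overlap for 6.79% of all genes without PI3Kdi and for 7.9% with it, and for 2 of the 10 class I genes in each case. Both calls without PI3Kdi were lost without WT replicate 2 (adjusted p = 0.0505), without KO replicate 1 (0.0538 for H2-Q6 and 0.0548 for H2-Q7) and without KO replicate 2 (0.0628), and in a fit of the 6 compared libraries alone (0.0898), which called no gene in the table. Both calls with PI3Kdi held under every alternative run. In bulk RNA a lower level in all cells and fewer cells that express the gene cannot be told apart.

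The summed markers of B cells had lower values in the same libraries as the H2-Q genes, and Cd4 had lower means in KO CTL. Of 12 B cell markers, Ighm (the IgM heavy chain), Igkc (the kappa light chain) and Cd79b (a B cell receptor signalling chain) were in the table, and Cd79a, Ms4a1, Pax5 and Ebf1 were among the 9 that were not. Their summed level was 11.4 to 15.6 FPKM in WT CTL and 15.3 to 19.5 FPKM in WT CTL with PI3Kdi, against 4.48 to 6.88 FPKM in KO CTL and 4.31 to 6.36 FPKM in KO CTL with PI3Kdi. Ighm fell by 1.60 without PI3Kdi (adjusted p = 0.0153) and by 2.38 with it (adjusted p = 0.000831), and Igkc was listed at 0 in all 3 libraries of KO CTL with PI3Kdi. Cd79b was at 3.00 to 4.29 FPKM in WT CTL and at 1.96 to 2.88 FPKM in KO CTL. With PI3Kdi it overlapped between genotypes, at 2.86 to 4.49 FPKM in WT CTL and 2.67 to 3.21 FPKM in KO CTL. Cd4, the defining marker of CD4 T cells, was at 0.55, 0.57 and 0.44 FPKM in WT CTL and at 0.09, 0.44 and 0.21 FPKM in KO CTL (log2 fold change -0.96, adjusted p = 0.670). With PI3Kdi it was at 0.95, 0.83 and 0.90 FPKM in WT CTL and at 0.12, 0.51 and 0.42 FPKM in KO CTL (-1.27, adjusted p = 0.215), without overlap. Its lowest value rested on an estimated 8 reads. The summed CD4 list overlapped with PI3Kdi too, at 7.36 to 7.79 FPKM in WT CTL and 4.96 to 7.39 FPKM in KO CTL. The 10 MHC class II genes summed to 23.2 to 24.5 FPKM in WT CTL and to 18.2 to 20.2 FPKM in KO CTL. With PI3Kdi these ranges overlapped, at 26.4 to 31.6 FPKM and 21.4 to 28.9 FPKM. These sums and Cd4 were below the level of H2-Q7 in every library, and their part in the result was not tested.

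H2-Q6 and H2-Q7 kept a nearly fixed ratio to each other. H2-Q6 was 1.62 to 2.03 times as abundant as H2-Q7 in the 12 libraries. Relative to the classical H2-K1 in the same library, H2-Q6 was at 0.317 to 0.378 in WT CTL and at 0.168 to 0.177 in KO CTL. With PI3Kdi these ratios were 0.278 to 0.344 and 0.154 to 0.165. Within a library the H2-Q6 to H2-K1 ratio thus separated the genotypes without overlap and needed no scaling between libraries.

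H2-Q6 and H2-Q7 lie side by side on the plus strand in the H2-Q part of the mouse MHC, at chr17:35424850-35430055 and chr17:35439155-35443773 (GRCm38). Their transcripts are alike, which limits how far their reads can be told apart. Of all 75-base windows of H2-Q6 transcripts, 17.9% occurred without mismatch in transcripts of another gene, most often H2-Q7 (9.8%). For H2-Q7 the share was 17%, most often with H2-Q10 (8.88%). The authors counted reads that mapped to 1 place, and the libraries were read from both ends. A pair with both ends in shared windows could thus go uncounted, though windows shared with different genes need not have this effect. A pair with an end in unique sequence could be counted. How many pairs this touched was not measured, and the separate levels of H2-Q6 and H2-Q7 are uncertain to an unknown extent. The share was 5.91% for H2-T23, 5.4% for H2-D1, 3.1% for H2-K1 and 1.1% for Tapbp, and it was 0 for B2m, Tap1, Tap2 and Nlrc5.

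None of the other H2-Q genes nearby was called. H2-Q4, another nonclassical heavy chain gene whose start is at -45.2 kb from that of H2-Q6, had a log2 fold change of -0.13 without PI3Kdi and 0.20 with it. H2-Q5, at -30.7 kb, was added here for its position and had values of -0.05 and 0.02. H2-Q2, whose start is at -82.6 kb from that of H2-Q6, was barely expressed, at 0.55, 0.47 and 0.35 FPKM in WT CTL and at 0.29, 0.34 and 0.11 FPKM in KO CTL, so that the groups did not overlap. Its log2 fold changes of -0.74 (adjusted p = 0.597) without PI3Kdi and -0.24 with it, where the groups overlapped, did not pass the test. H2-Q10 starts 45.2 kb after H2-Q6 and encodes a class I protein best known as a secreted product of the liver. It was at 12.8, 22.2 and 20.5 FPKM in WT CTL and at 30.7, 26.2 and 31.7 FPKM in KO CTL, so every KO library was above every WT library. With PI3Kdi it was at 9.54, 16.4 and 15.2 FPKM in WT CTL and at 25.9, 25.6 and 25.4 FPKM in KO CTL. Its log2 fold changes between genotypes, 0.71 (adjusted p = 0.351) and 0.94 (adjusted p = 0.0735), did not pass the limma test, and the latter passed with same-numbered libraries of a genotype treated as a pair (adjusted p = 0.0305). Among 121 genes that start within 1600 kb of H2-Q6, 22 of them H2 genes, 2 were called between genotypes without PI3Kdi, H2-Q6 and H2-Q7. With PI3Kdi 3 were called, the same pair and Prrt1, which rose by 2.18 and is named because it was the only other call. H2-T-ps, which starts 684 kb after H2-Q6 and was at a mean of 24.3 FPKM, also fell with PI3Kdi, by 0.54 (adjusted p = 0.0113), a change below the 1.5-fold threshold. Without PI3Kdi its value was -0.37 (adjusted p = 0.141). It is named after its values were seen.

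**Figure D2:**
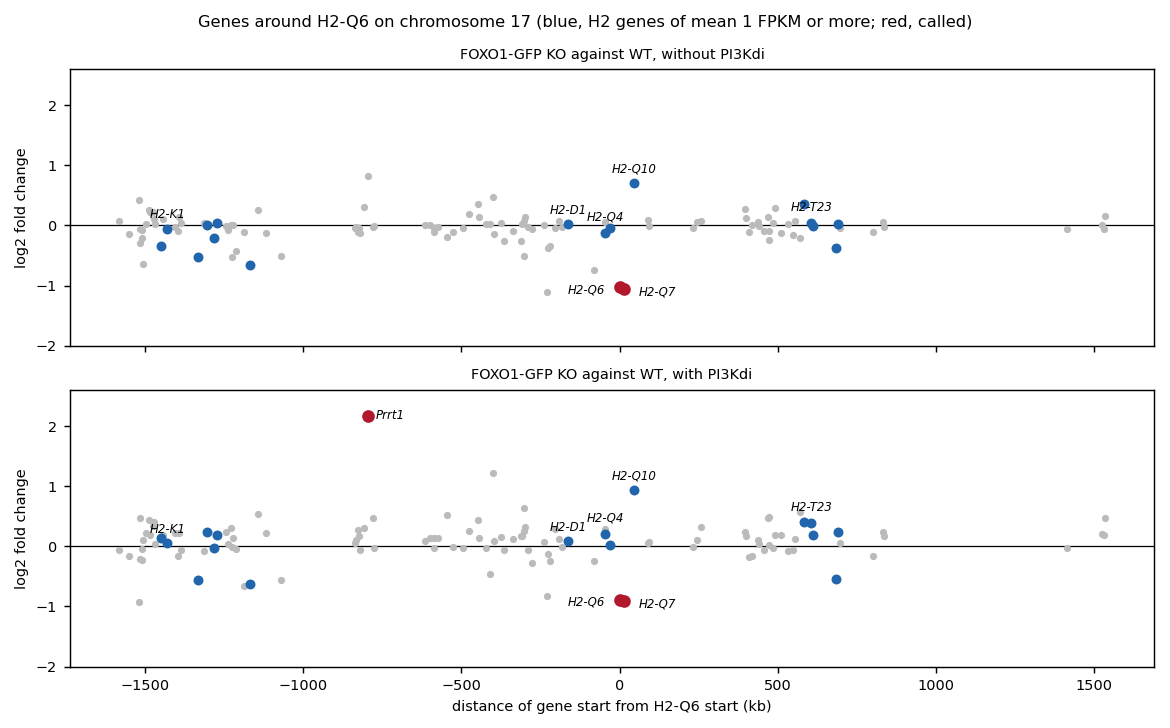
log2 fold change (FOXO1-GFP KO over WT, y axis) of genes on chromosome 17 against the distance of their start from that of H2-Q6 in kb (x axis), without PI3Kdi above and with PI3Kdi below, with called genes in red and other H2 genes of at least 1 FPKM in blue. H2-Q6 and H2-Q7 are the red points near -1 in both panels, and H2-Q10 at +45.2 kb lies above 0 in both.

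Promoter sequences are shown for H2-Q6 and H2-Q7, which were lower in KO CTL, for H2-Q10, their neighbour with values in the other direction, and for the classical H2-K1, which did not pass the test. They were taken from a RefSeq table for GRCm38.p6 that spans 250 bases before to 50 bases after each annotated start. It held 8 of the 10 genes, and Tap2 and Nlrc5 had no entry in it. Sequences run 5′ to 3′ on the gene's strand: H2-Q6 chr17:35424600-35424899 (+), H2-Q7 chr17:35438905-35439204 (+), H2-Q10 chr17:35469839-35470138 (+) and H2-K1 chr17:34000298-34000597 (-). Capitals mark matches, on either strand, to the NF-κB type motif GGGGANTCC and to CCAAT, the core of the Y box that NF-Y binds.
H2-Q6: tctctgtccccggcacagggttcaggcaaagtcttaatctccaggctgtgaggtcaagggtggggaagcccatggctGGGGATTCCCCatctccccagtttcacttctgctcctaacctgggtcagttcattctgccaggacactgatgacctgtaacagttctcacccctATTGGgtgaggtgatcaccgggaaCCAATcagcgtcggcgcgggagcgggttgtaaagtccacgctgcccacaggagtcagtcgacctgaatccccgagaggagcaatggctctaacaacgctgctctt
H2-Q7: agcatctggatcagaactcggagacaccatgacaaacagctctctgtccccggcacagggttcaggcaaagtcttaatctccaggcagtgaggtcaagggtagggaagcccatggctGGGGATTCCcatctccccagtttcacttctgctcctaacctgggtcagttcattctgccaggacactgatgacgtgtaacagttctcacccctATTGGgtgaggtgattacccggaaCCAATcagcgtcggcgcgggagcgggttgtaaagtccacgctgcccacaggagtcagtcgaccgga
H2-Q10: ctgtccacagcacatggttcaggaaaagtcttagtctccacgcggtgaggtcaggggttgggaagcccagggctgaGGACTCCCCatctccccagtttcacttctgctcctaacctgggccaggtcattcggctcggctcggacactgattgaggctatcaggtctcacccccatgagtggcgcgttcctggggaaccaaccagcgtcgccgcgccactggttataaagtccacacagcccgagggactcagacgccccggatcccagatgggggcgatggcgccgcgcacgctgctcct
H2-K1: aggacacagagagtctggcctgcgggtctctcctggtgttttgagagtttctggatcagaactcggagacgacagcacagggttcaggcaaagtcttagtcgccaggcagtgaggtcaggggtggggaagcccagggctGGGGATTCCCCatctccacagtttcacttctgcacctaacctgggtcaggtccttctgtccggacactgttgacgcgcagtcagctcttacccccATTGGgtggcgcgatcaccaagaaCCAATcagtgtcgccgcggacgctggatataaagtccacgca

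The H2-Q6 and H2-Q7 windows were nearly the same sequence, with 254 of 261 aligned positions identical (97.3%). H2-Q6 was 77.2% identical to H2-Q10 over 302 aligned positions and 83.2% identical to H2-K1 over 238. The spans differ, so these percentages do not rank the windows by likeness. GGGGANTCC was present in the H2-Q6, H2-Q7, H2-Q10, H2-K1 and H2-D1 windows and in 1.19% of 32817 promoter windows of the table. In H2-Q6 and H2-K1 it overlapped a match to itself on the other strand, while H2-Q7 held the plus strand match and H2-Q10 the minus strand match. CCAAT was found in the H2-Q6, H2-Q7 and H2-K1 windows once on each strand and not in the H2-Q10 window, and 37.4% of all windows held it. GAAANNGAAA, the only pattern searched for interferon elements, was found in the B2m and H2-T23 windows and in 3.43% of all windows. Other forms of interferon element were not searched. The FOXO core motif GTAAACA was searched on both strands and was found in no window of the 8 genes and in 3.65% of all windows. A match is a description of letters, and a missing one says only that these letters were not in this window. The H2-Q6, H2-Q7 and H2-K1 windows held matches to the same motifs, and H2-K1 was not called. H2-Q4, also not called, held CCAAT on each strand and no match to GGGGANTCC. The part of these motifs in the mRNA levels was not tested.

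**Figure D3:**
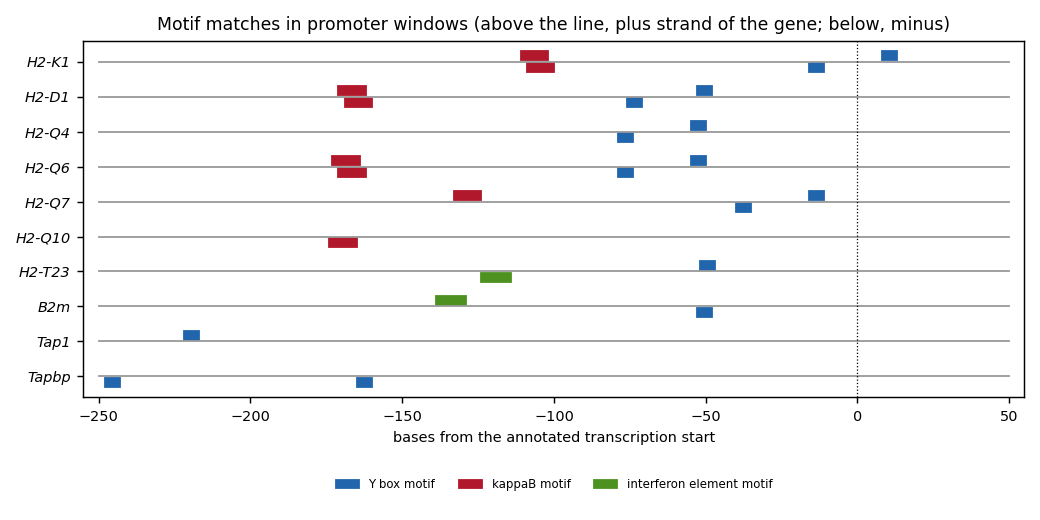
Matches to GGGGANTCC (red), CCAAT (blue) and GAAANNGAAA (green) in RefSeq promoter windows, by distance in bases from the annotated transcription start (x axis), above the line for the plus strand of the gene and below for the minus strand. H2-Q6, H2-Q7, H2-D1 and H2-K1 hold red and blue matches, the H2-Q10 window holds 1 red and no blue match, and no match to GTAAACA was found.

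The other 8 genes showed no call between genotypes in either culture condition. The classical heavy chain H2-K1 was at 733, 783 and 893 FPKM in WT CTL and at 733, 753 and 833 FPKM in KO CTL. H2-D1 was at 809, 985 and 1101 FPKM in WT CTL and at 907, 903 and 1115 FPKM in KO CTL. B2m was at 2832, 3703 and 4091 FPKM in WT CTL and at 3212, 3145 and 4327 FPKM in KO CTL. The ranges of these 3 genes overlapped almost wholly. Without PI3Kdi, the log2 fold changes of the 8 genes were between -0.08 (Tapbp) and 0.05 (H2-T23), and their 95% intervals lay between -0.48 and 0.50, so changes of 1.5-fold fell outside every interval. With PI3Kdi, the values ran from -0.04 (Tapbp) to 0.39 (H2-T23, SE 0.19, adjusted p = 0.538), and the intervals from -0.29 to 0.80. The median of the 10 genes was -0.02 without PI3Kdi and 0.07 with it, and that of all genes was -0.01 and 0.01.

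**Figure D4:**
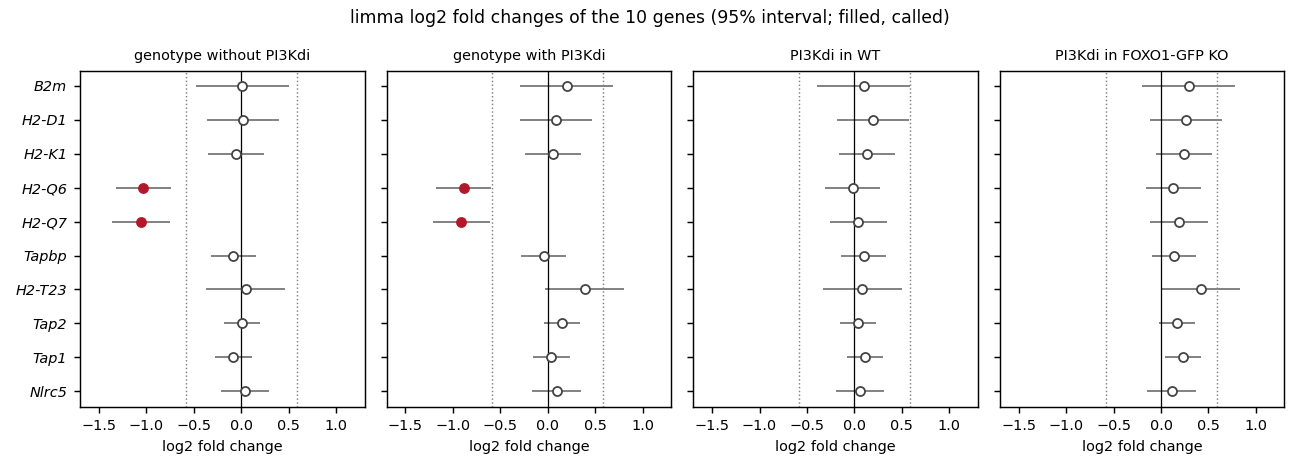
limma log2 fold changes (points, x axis) with 95% intervals (lines) of the 10 genes in 4 comparisons, filled where called, with dotted lines at 1.5-fold. H2-Q6 and H2-Q7 are the only filled points, at -1.03 and -1.06 without PI3Kdi and at -0.89 and -0.91 with it.

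PI3Kdi changed none of the 10 genes past the call in WT CTL, where 0.0979% of all genes were called. That count, 13 genes, came from the fit without pairs and depended on it. With same-numbered libraries of a genotype treated as a pair, 342 of all genes were called. By limma, 0 of the 10 had an unadjusted p below 0.05, against 683 of all 13283 genes. H2-K1 was at 733, 783 and 893 FPKM with vehicle and at 805, 861 and 980 FPKM with PI3Kdi. H2-D1 was at 809, 985 and 1101 FPKM with vehicle and at 918, 1127 and 1274 FPKM with PI3Kdi. Each same-numbered pair was higher with PI3Kdi for both genes, but the libraries of one group differed by more than the pairs did. The log2 fold changes of the 10 genes ran from -0.02 (H2-Q6) to 0.20 (H2-D1), with 95% intervals between -0.39 and 0.59, and 9 of 10 were above 0. Their median was 0.09, where that of all genes was -0.04. The groups failed to overlap for 0 of the 10 genes and for 10.2% of all genes.

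Same-numbered libraries of one genotype deviated together, so the comparison was also fitted with the replicate number as a block within genotype. In WT CTL 0 of 10 genes then passed an adjusted p of 0.05, with no fold threshold, where 7.41% of all genes did. Voom with the same block also gave 0. In the blocked limma fit 3 of the 10 had an unadjusted p below 0.05. The share of all genes at that rule is not given here, so this count is not read as a response of the 10 genes. Of the 30 ratios between same-numbered libraries (PI3Kdi over vehicle), 26 were above 0 on the log2 scale. All 3 pairs were higher for 6 of the 10 genes, and for 16.7% of all genes.

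In FOXO1-GFP KO CTL, all 10 genes had higher means with PI3Kdi, by small amounts. H2-K1 was at 733, 753 and 833 FPKM with vehicle and at 869, 905 and 965 FPKM with PI3Kdi. H2-T23, the Qa-1 heavy chain gene, was at 77.2, 80.3 and 109 FPKM with vehicle and at 104, 110 and 143 FPKM with PI3Kdi. The groups of H2-K1 did not overlap, while the highest vehicle library of H2-T23 stood above the lowest PI3Kdi library. Tap1 was at 73.5, 79.3 and 75.5 FPKM with vehicle and at 87.9, 86.1 and 93.8 FPKM with PI3Kdi. Tap2 was at 83.2, 83.6 and 84.4 FPKM with vehicle and at 92.0, 91.2 and 99.9 FPKM with PI3Kdi. Both transporter genes were thus higher in every PI3Kdi library than in every vehicle library. The groups failed to overlap for 4 of the 10 genes (H2-K1, Tap1, Tap2 and Tapbp), each higher with PI3Kdi, where this held for 5.28% of all genes. Within pairs the count was 30 of 30 ratios above 0, so that all 3 pairs were higher for 10 of 10 genes, where this held for 23.1% of all genes.

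None of the 10 genes was called for PI3Kdi in KO CTL, where 0.0452% of all genes were called. The limma log2 fold changes ran from 0.11 (Nlrc5) to 0.42 (H2-T23), with a median of 0.21 against -0.02 over all genes. Of the 10 genes, 2 had an unadjusted limma p below 0.05, against 687 of all 13283 genes. With the replicate block within genotype, 5 of 10 genes rose at an adjusted p below 0.05, where 6.02% of all genes did. These were H2-T23 (0.42, blocked adjusted p = 0.00682), Tap1 (0.23, 0.0154), H2-K1 (0.24, 0.0289), Tap2 (0.17, 0.0323) and H2-D1 (0.26, 0.0459). None of them changed by more than 1.5-fold. B2m had a log2 fold change of 0.29 (blocked adjusted p = 0.0919), H2-Q7 of 0.19 (0.0586), Tapbp of 0.14 (0.101), H2-Q6 of 0.13 (0.154) and Nlrc5 of 0.11 (0.19). The count of 5 depended on the pairs. It was 1 without the KO pair 1 (H2-T23), 1 without pair 2 (Tap1) and 1 without pair 3 (H2-T23), 2 without the WT pair 2, and 0 with a block shared by both genotypes. It was 3 with libraries scaled to their summed FPKM and 6 by voom with the block, which added B2m. Of 9 CD8 T cell and CTL markers, 6 were also higher in that blocked fit (Cd3d, Cd3e, Cd3g, Cd8a, Cd8b1 and Cd2) and Prf1 (perforin) was lower, and the part of these in the result was not tested.

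**Figure D5:**
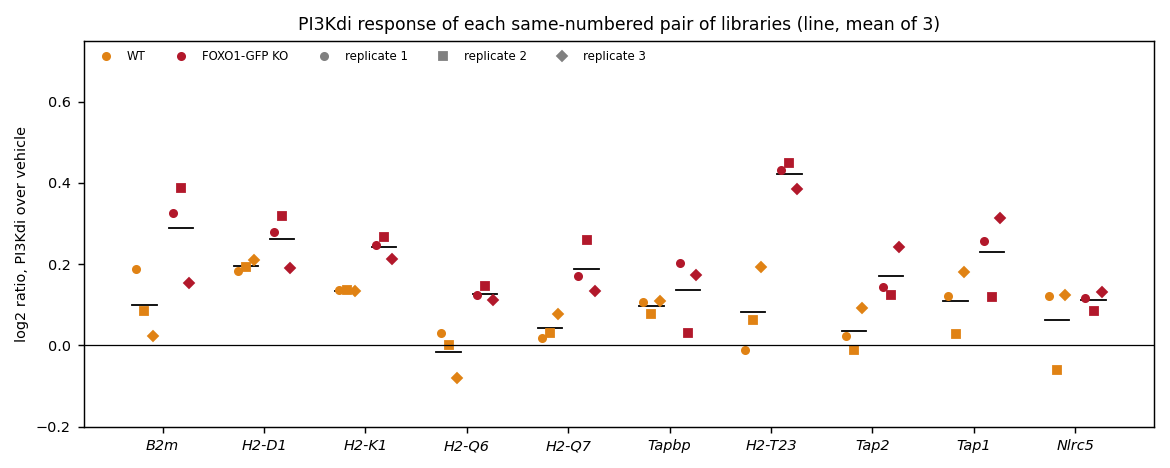
log2 ratio of PI3Kdi over vehicle (y axis) in each same-numbered pair of libraries for the 10 genes, in WT CTL (orange) and FOXO1-GFP KO CTL (red), with lines at the mean of 3. All 30 red points and 26 of the 30 orange points lie above 0, and the H2-T23 points of KO CTL are between 0.39 and 0.45.

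Whether PI3Kdi acted differently in the 2 genotypes was tested as the difference of the responses (KO minus WT). The difference was above 0 for 10 of 10 genes and ran from 0.04 (Tapbp) to 0.34 (H2-T23), with a median of 0.13 against 0.02 over all genes. By limma, 0 of the 10 genes and 0% of all genes were called. Of the 10, 0 had an unadjusted limma p below 0.05, against 200 of all 13283 genes. With the block, 0 of the 10 passed an adjusted p of 0.05, where 0.0376% of all genes did, and H2-T23 had a blocked adjusted p of 0.259. The H2-T23 pair ratios were -0.01, 0.06 and 0.19 in WT CTL and 0.43, 0.45 and 0.39 in KO CTL, while those of H2-K1 were 0.14, 0.14 and 0.13 in WT CTL and 0.25, 0.27 and 0.21 in KO CTL. Every ratio of KO CTL was above every ratio of WT CTL for both genes, and also for Tap2, H2-Q6 and H2-Q7. For H2-D1, B2m, Tap1, Tapbp and Nlrc5 the ratios of the genotypes overlapped. The share of all genes with such a separation was not counted. A difference in response between genotypes did not pass the test for any of the 10.

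Replicates also differed in a way shared by many of these genes. Replicate 3 was the highest library for 6 of the 10 genes in WT CTL, 6 in WT CTL with PI3Kdi, 8 in KO CTL and 10 in KO CTL with PI3Kdi, and was the lowest for none. Over the 12 libraries, the log2 levels of H2-K1 and H2-D1 correlated at r = 0.95, those of H2-D1 and B2m at r = 0.95, those of B2m and H2-T23 at r = 0.93 and those of Tap1 and Tapbp at r = 0.86. H2-Q6 and H2-Q7 correlated at r = 0.99 with each other and at r = -0.31 to 0.26 with the other 8 genes. These values describe 12 libraries that share genotype, culture and replicate structure. The genes of at least 1 FPKM whose pattern was most like the mean pattern of the 10 were Rab11b (r = 0.957), H2-K2 (0.955), AW112010 (0.947), Izumo4 (0.946) and Fes (0.945). H2-Q7 was the gene most like H2-Q6, and Rgs11 (r = 0.963) and Ighm (r = 0.949) were among the next.

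The rest of the class I pathway was examined through lists of related genes. Of 20 other nonclassical and class I-like heavy chain genes 10 were in the table, with H2-Q4 at 161 FPKM, H2-T22 at 87.6 FPKM and H2-M3, which presents formylated peptides, at 28.7 FPKM. None of the 10 was called in any comparison. In the blocked fit 2 rose with PI3Kdi in KO CTL, H2-Q4 (0.34, blocked adjusted p = 0.0295) and H2-M3 (0.19, 0.0113), and H2-Q10 fell by 0.43 with PI3Kdi in WT CTL (0.0153). The list's median was 0.09 in KO CTL and -0.12 in WT CTL.

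All 8 genes for loading chaperones and peptide trimming were in the table, led by Calr (calreticulin) at 405 FPKM, Pdia3 (ERp57) at 332 FPKM and Hspa5 (BiP) at 237 FPKM. None was called in any comparison. Tapbpl, which encodes the tapasin-related peptide editor TAPBPR, was the only one of the 8 to rise with PI3Kdi in KO CTL in the blocked fit (0.30, blocked adjusted p = 0.00883). It was at 41.7, 46.2 and 53.4 FPKM with vehicle and at 54.3, 52.2 and 67.1 FPKM with PI3Kdi. The list's median there was -0.08, with 1 of 8 values above 0, where the median of all genes was -0.02.

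Of the 6 immunoproteasome and proteasome activator genes, all in the table, Psme1 (222 FPKM) and Psme2 (216 FPKM) encode the PA28 activator and Psmb8 (209 FPKM) a catalytic subunit of the inducible form. None was called. With PI3Kdi in KO CTL 6 of 6 had values above 0, with a median of 0.29, and 3 rose in the blocked fit: Psmb8 (0.29, blocked adjusted p = 0.0485), Psmb9 (0.33, 0.0239) and Psmb10 (0.32, 0.0442). Psmb9 was at 55.4, 59.7 and 81.1 FPKM with vehicle and at 76.1, 72.6 and 96.2 FPKM with PI3Kdi, so each pair was higher while the groups overlapped. In WT CTL the median of this list was 0.00. The 3 constitutive catalytic subunit genes, whose places the inducible subunits take, had a median of 0.01 in KO CTL and -0.11 in WT CTL, with none called and none past an adjusted p of 0.05 with the block.

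Of 17 genes for regulators of class I promoters (RFX, NF-Y, NF-κB and IRF factors among them), 17 were in the table and none was called in any comparison. In the blocked fit, Irf1, which carries interferon signals to class I promoters, rose by 0.30 with PI3Kdi in KO CTL (blocked adjusted p = 0.0164), and Nfyb, an NF-Y subunit gene, fell by 0.28 with PI3Kdi in WT CTL. Irf1 was at 50.9, 58.3 and 72.2 FPKM with vehicle in KO CTL and at 67.2, 72.1 and 81.9 FPKM with PI3Kdi, and it was at 56.4, 62.2 and 69.2 FPKM in WT CTL and at 59.9, 57.6 and 67.0 FPKM with PI3Kdi there. Each pair of KO CTL was higher with PI3Kdi while the groups overlapped, and replicate 3 was the highest library in all 4 groups, as it was for most of the 10 class I genes.

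The interferon gamma pathway genes, 8 of 8 in the table, moved in both directions with PI3Kdi in the blocked fit and none was called without the block. Ifng, the cytokine itself, fell in both genotypes, from 21.1, 24.9 and 32.4 FPKM to 9.73, 14.6 and 15.6 FPKM in WT CTL (blocked adjusted p = 0.000442) and from 26.4, 27.3 and 32.3 FPKM to 21.7, 16.9 and 16.2 FPKM in KO CTL (0.00656). The receptor genes rose in both. Ifngr1 was at 139, 144 and 119 FPKM with vehicle and 190, 218 and 189 FPKM with PI3Kdi in WT CTL (log2 fold change 0.57, blocked adjusted p = 0.00034), and in KO CTL its change was 0.47 (0.00146). Ifngr2 changed by 0.70 in WT CTL (0.00275) and by 1.22 in KO CTL (0.000165). Socs1, a feedback inhibitor of the pathway, rose by 0.41 in KO CTL (0.0221). The difference between genotypes in these responses did not pass the test for any of the 8 genes, with or without the block.

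MHC class II genes were at low levels, with H2-Oa at 7.18 FPKM, H2-DMa at 6.77 FPKM and H2-Ab1 at 4.11 FPKM as the highest of 10 in the table. None was called. In the blocked fit H2-DMa and H2-Oa, which encode parts of the class II peptide editors, rose with PI3Kdi in WT CTL (0.48 and 0.55) and in KO CTL (0.71 and 0.51), and H2-DMb2 rose in KO CTL (0.58). No class II gene passed the test between genotypes, with or without the block.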

How the data were processed

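RNA of sorted CTL was made into stranded, poly(A)-selected libraries from 300 ng RNA. The authors aligned reads with STAR 2.7.1a to GRCm38.p6, counted uniquely mapped reads, removed low genes, normalised by TMM in edgeR and deposited FPKM per library, to 2 decimals. The strand setting of the counting is not given in the sources used here, and 24.9% of the exon bases of Tapbp and 18.5% of those of Tap2 overlap genes on the other strand, and 3.87% of those of Tap1 overlap Psmb9, so those values are uncertain to that extent.

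Groups followed the sample labels. FPKM were analysed as log2(FPKM + 0.1) in limma 3.58.1 (R 4.3.3) with 1 mean for each of the 4 groups, a mean-variance trend and Benjamini-Hochberg adjustment over 13283 genes. Low genes were not filtered further, and 10 of the 10 class I genes were tested. Reads were estimated from the steps of low FPKM values. 98.4% to 99.8% of held-out values then came out within 0.2 of a whole read, against 40% by chance, and gave 12.9 to 48.0 M reads per library. They were used for voom and for counting error only, and the study's own test, on counts, was replaced by this one because the deposited values are FPKM.

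Numbers pair libraries within a genotype: residuals of same-numbered libraries correlated at 0.594 to 0.838 there and at -0.409 to 0.730 between genotypes. Whether such a pair came from 1 mouse is not in the labels. A fit with this block (duplicateCorrelation) was an alternative. The other alternatives were the pseudocount, a filter, scaling, the trend, voom, the libraries fitted and each library left out. On data simulated for PI3Kdi in WT CTL (13283 genes, 200 changed by 1 on the log2 scale), the fit recovered 92% with 2 false calls, and the blocked fit 99.5% with 28. The blocked fit thus made more false calls, a limit for the results given above by blocked adjusted p alone. Recovery of smaller values, such as the 0.11 to 0.42 of the 10 genes with PI3Kdi in KO CTL, was not tested.

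The named genes were the 10 genes, the most abundant and the passing genes of each list, and the genes most like them in pattern. The genes and lists were chosen with earlier results of these data known. Replicates differed by more than sampling noise. Positions are from GENCODE M21. Some genes of the lists are counted but not reported here by name.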

Additional observations from a re-analysis of the deposited data

How the results depend on the processing

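Each of the 50 values of the 10 genes in 5 comparisons was recomputed under up to 31 alternatives, 1540 values in all. Of these, 1467 kept their direction and their side of the threshold, 61 changed sign and 12 lost a call, and none gained one. The sign changes fell on 20 values, none larger than 0.10 on the log2 scale, and the 4 called values never changed sign. The 2 calls between genotypes without PI3Kdi became 0 when only the 6 compared libraries were fitted, which leaves fewer libraries to estimate the spread, and were 0 to 2 with a library or pair left out. They remained 2 with the replicate block, and the 2 calls with PI3Kdi remained 2 under every alternative run. The order of the mean levels was the same under both other scalings. With each library left out, an alternative chosen after seeing the data, 8 to 10 of the 10 genes kept their rank: without WT CTL with PI3Kdi replicate 1, H2-T23 (98.2 FPKM) came before Tapbp (97.7 FPKM). The H2-Q6 response to PI3Kdi in WT CTL (-0.02) was 0.0148 with median-ratio scaling, with or without the block, and the cause was not tested. With a library or pair left out it was -0.126 to 0.0712, the H2-T23 value between genotypes without PI3Kdi (0.05) was -0.111 to 0.144, the Tapbp value with PI3Kdi (-0.04) was -0.131 to 0.0280 and the Nlrc5 difference of responses (0.05) was -0.0437 to 0.128. Over all genes the block raised the calls for PI3Kdi from 13 to 342 in WT CTL and from 6 to 370 in KO CTL, and changed no call of the 10 genes by the rule with the fold threshold. Between genotypes it gave 31 and 157 calls against 44 and 193. Over the alternatives that kept all libraries, the calls ran from 0 to 355 and from 0 to 445 for PI3Kdi in WT and KO CTL, from 0 to 178 and from 94 to 440 between genotypes without and with PI3Kdi, and from 0 to 7 for the difference of responses, where the lowest counts for PI3Kdi and between genotypes came from a fit of the compared libraries alone and the highest between genotypes from a block shared by both genotypes. Scaling to the summed FPKM also gave 0 for PI3Kdi in KO CTL. Other scalings moved the median of all genes by at most 0.077. The 3 libraries of a group, rather than depth, set the precision here.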
